A study of Homo sapiens with 19 samples.

Results

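10 genes of the glutathione transferase families were followed in HepaRG cells. The set was defined by gene symbol, with earlier results of these data known. It holds GSTA1, GSTA2, GSTA4, GSTP1, GSTK1, GSTO1, GSTZ1, MGST1, MGST2 and MGST3, which are 10 of the 78894 genes in the table of expected counts. HepaRG is an established human hepatic line of tumour origin whose differentiated cultures hold hepatocyte-like and biliary-like cells. Total RNA depleted of ribosomal RNA was sequenced as paired reads in 19 libraries of 7 groups. The study asked how knocking down the RNA editing enzymes ADAR and ADARB1 changes these cells, beside interferon alpha and the kinase inhibitor BX795.

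Batch 1 held 3 libraries with a negative control siRNA (siNC), 3 with an ADAR siRNA and 3 with an ADARB1 siRNA, each at 20 nM. Batch 2 held 3 further siNC libraries, 2 with interferon alpha (IFNa) at 1000 U/mL, 3 with BX795 at 1 µM, and 2 with BX795 at 1 µM together with the ADAR siRNA at 20 nM. All 7 groups were differentiated cultures in multiwell plates. Compounds were added on the day of transfection and renewed with the medium at 24 h and at 48 h, the second time in serum-free medium. The labels name 1 siRNA for each target. The sources used here do not give whether wells with only IFNa or BX795 also received siNC, when the cells were harvested, or whether replicates were separate cultures. The p-values therefore measure only the spread between these libraries.

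Glutathione transferases join glutathione to electrophilic drugs, toxins and oxidised lipids, which makes them easier to export from the cell. The soluble alpha class is abundant in hepatocytes, the pi class is known from bile duct cells and many tumours, and the microsomal members sit in membranes and also reduce lipid peroxides. Many of these genes are known targets of the oxidant-responsive factor NRF2 and of liver transcription factors.

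The 3 alpha members lie close together on chromosome 6 of build GRCh38.p14, all on the minus strand. GSTA2 spans chr6:52750087-52763475, GSTA1 spans chr6:52791371-52803816 and GSTA4 spans chr6:52977953-52995284. The remaining genes are on separate chromosomes: MGST3 at chr1:165631234-165656136, MGST2 at chr4:139665819-139754618, GSTK1 at chr7:143263441-143269115, GSTO1 at chr10:104254173-104267455, GSTP1 at chr11:67583812-67586653, MGST1 at chr12:16347115-16593331 and GSTZ1 at chr14:77321036-77331597. Levels below are in CPM, gene counts relative to the library total, with TMM scaling within each batch.

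GSTA1 and GSTA2 are near-identical copies, and much of what follows turns on how far their RNA moved apart. The 250 bases before each annotated start are shown 5′ to 3′ from RefSeq on GRCh38.p14, on the minus strand, at chr6:52803817-52804066 for GSTA1 and chr6:52763476-52763725 for GSTA2. Capitals mark the 7 positions at which they differ.
GSTA1: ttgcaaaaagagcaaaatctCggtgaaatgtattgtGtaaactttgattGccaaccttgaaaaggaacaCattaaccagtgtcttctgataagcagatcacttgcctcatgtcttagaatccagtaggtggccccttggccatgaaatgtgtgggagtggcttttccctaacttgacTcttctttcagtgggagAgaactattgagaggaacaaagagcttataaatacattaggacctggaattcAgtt
GSTA2: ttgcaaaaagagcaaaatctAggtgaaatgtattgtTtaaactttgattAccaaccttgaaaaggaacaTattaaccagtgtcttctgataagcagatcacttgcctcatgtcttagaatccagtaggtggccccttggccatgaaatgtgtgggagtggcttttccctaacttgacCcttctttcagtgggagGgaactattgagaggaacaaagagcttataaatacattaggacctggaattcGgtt
The upstream stretches are 97.2% identical, and both hold the letters TATAAA from 30 bases before the start. On either strand, TATAAA is found in the 250 upstream bases of 10.7% of 35116 RefSeq starts and in those of 4 of the 9 members with an entry (GSTA1, GSTA2, GSTO1 and MGST1). The letters TGACNNNGC, the core of the antioxidant response element bound by NRF2, are found in 10.9% of all starts, and among the members at GSTA4, GSTP1 and GSTO1. These are letter matches only. The coding sequences are 666 bases each and differ at 22 positions, which is 96.7% identity, and their longest identical run is 209 bases. Reads of 150 bases can fall inside such a run, so the division of counts between GSTA1 and GSTA2 rests on the authors' estimation. Results for both genes are therefore also given with their counts added together.

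Depth and quality bear on all of these values. Total counts ranged from 42.7 to 77.1 M in batch 1 and from 13.1 to 34.7 M in batch 2, and the common coefficient of variation between replicates was 6.7% and 14.2%. All 15 hepatocyte markers were detected in every group, and their summed level was 66952 to 72143 CPM in the siNC libraries of batch 1 and 13441 to 16096 CPM in those of batch 2. The 12 biliary and progenitor markers summed to 561 to 615 CPM in the siNC libraries of batch 1 and to 487 to 587 CPM in those of batch 2. In each group 1 or 2 of these 12 were at 0. EPCAM was at 0 in all groups but the ADARB1 siRNA group. ADAR fell from 240 ± 1.3 to 59.6 ± 4.84 CPM (SD, n = 3 each) after its siRNA, and ADARB1 from 29.9 ± 1.07 to 9.96 ± 0.498 CPM after its own. ADAR siRNA also lowered ADARB1, with a log2 fold change of -0.26. With BX795, ADAR was 58 ± 2.66 CPM (n = 2) under its siRNA and 290 ± 14.7 CPM (n = 3) without it. In batch 2 the siNC libraries differed from the others in base composition, replicates 2 and 3 by far more than replicate 1. Relative to the batch mean, genes above 60% GC minus genes below 40% GC gave log2 values of 0.25, 1.00 and 0.81 in the 3 siNC libraries, -0.20, -0.60 and -0.48 with BX795, -0.37 and 0.07 with IFNa, and 0.01 and -0.50 with BX795 and ADAR siRNA. Mitochondrial mRNA made up 1.62% to 3.2% of siNC counts and 4.52% to 4.77% of BX795 counts. The batch 1 libraries lay between -0.08 and 0.14 on the GC measure.

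In the control cells of batch 1, GSTA1 and MGST1 led the set. Per length, as CPM per kb of transcript, GSTA1 averaged 669 and MGST1 578, followed by GSTK1 at 213, GSTA2 at 139, GSTO1 at 133, MGST3 at 61, MGST2 at 36.6, GSTZ1 at 28.8 and GSTA4 at 6.69. Neighbours in this order did not overlap in their 3 libraries. In the batch 2 controls the order was MGST1 at 302, GSTK1 at 192, GSTA1 at 129, GSTO1 at 67.1, MGST3 at 49.6, GSTZ1 at 25.6, MGST2 at 20.2, GSTA2 at 7.04 and GSTA4 at 2.26 CPM per kb, again without overlap between neighbours. The batches were scaled separately, so their levels are set side by side with no test.

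GSTP1, the pi class enzyme, was at or near 0 throughout. It had 0 counts in 18 libraries and 1 count in BX795 replicate 3, out of 752 M counts in all. The limit set by 3 counts was at most 0.229 CPM in any library with 0 (counting error only). GSTP1 was therefore not tested, and every count of members below is out of the 9 that were.

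**Figure D1:**
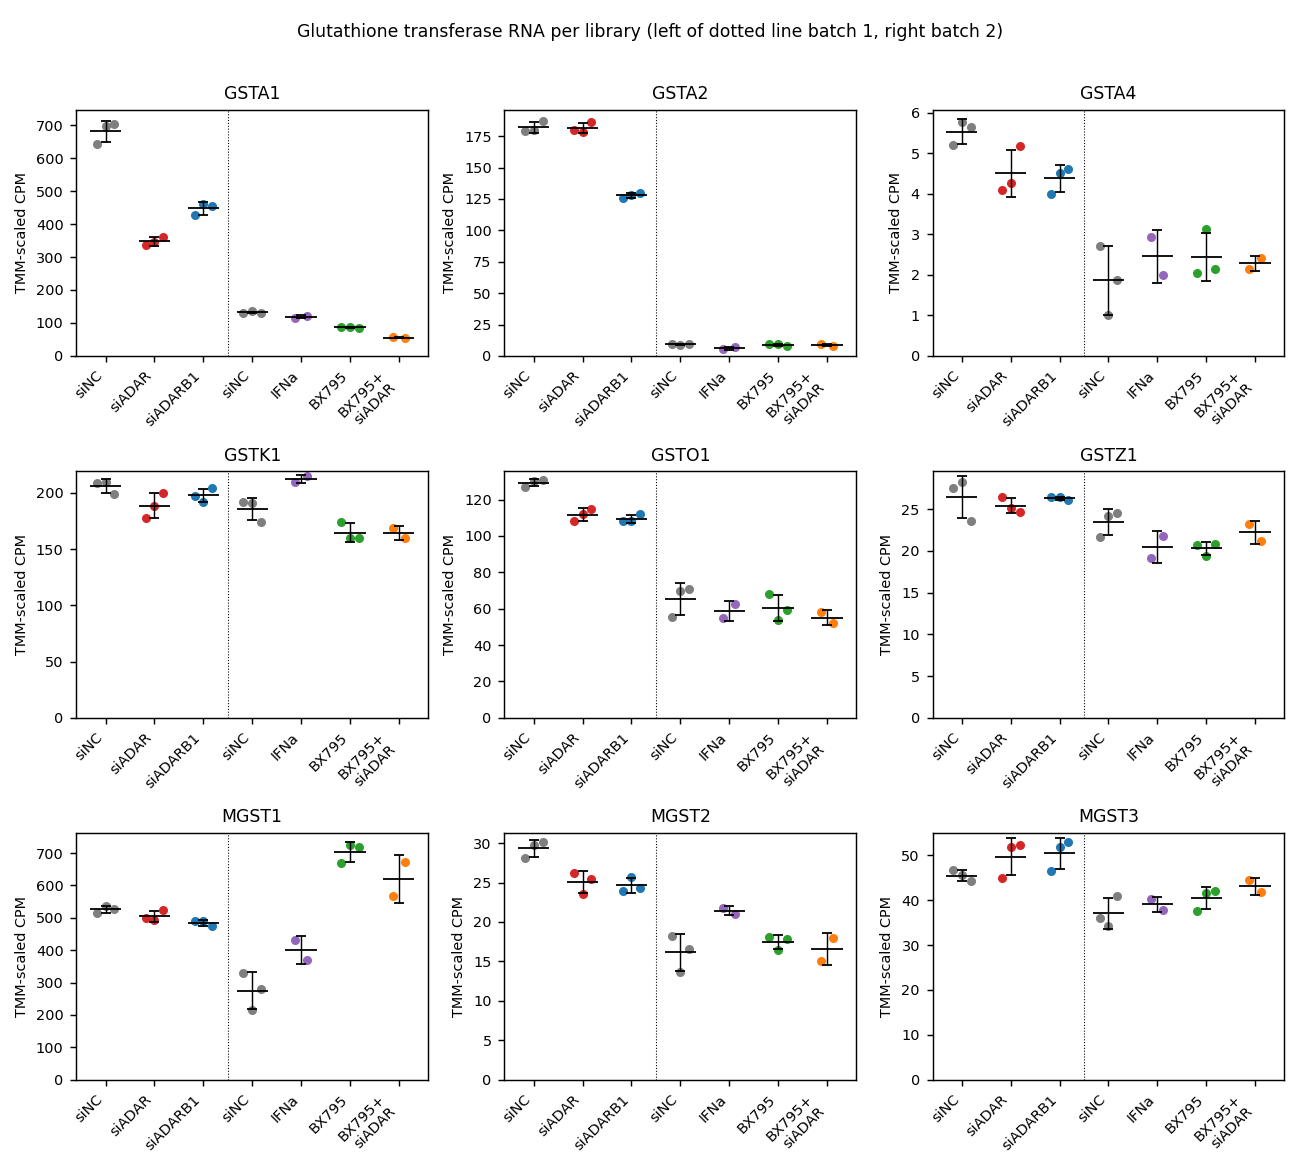
TMM-scaled CPM (vertical axes from 0) of the 9 tested members in each of the 19 libraries. Points are libraries, horizontal bars are group means, and whiskers are the SD; the dotted line separates the batches, which were scaled separately. GSTA1 is at 335 to 361 CPM in the ADAR siRNA libraries and at 644 to 704 CPM in their controls, and MGST1 is at 668 to 724 CPM with BX795 and at 215 to 331 CPM in its controls.

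After ADAR siRNA, GSTA1 RNA fell to about its control level times 0.51 while GSTA2, its near-identical neighbour, stayed at the control mean. A few of the other members fell slightly and none rose. Of 9 tested members, 4 were lower than siNC (GSTA1, GSTO1, MGST2 and GSTK1) and 0 were higher at an adjusted p below 0.05, where 37.8% of all 21747 tested genes passed, 20.2% higher and 17.6% lower. The members' median log2 fold change was -0.13, against -0.01 for all tested genes.

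GSTA1, which conjugates many drugs in liver, was at 644, 696 and 704 CPM in the 3 siNC libraries and at 335, 346 and 361 CPM in the 3 ADAR siRNA libraries. The groups were far apart, with means of 681 ± 32.5 and 347 ± 12.8 CPM (SD, n = 3 each). The log2 fold change was -0.97 ± 0.05 (SE; adjusted p = 1.30e-09, edgeR quasi-likelihood, Benjamini-Hochberg over all genes; the same test gives every adjusted p below unless another is named), lower in 3 of 3 libraries. GSTA2, an alpha enzyme with overlapping substrates, was at 179, 180 and 187 CPM in siNC and at 180, 178 and 186 CPM after ADAR siRNA. These libraries overlapped, and the log2 fold change was -0.00 ± 0.04 (adjusted p = 0.94). With both genes counted as 1, the log2 fold change was -0.71 ± 0.04 (adjusted p = 1.04e-08).

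The balance between the copies can be read within each library. GSTA2 made up 21.8%, 20.5% and 21.0% of the GSTA1 and GSTA2 counts in the siNC libraries, and 35.0%, 34.0% and 34.0% after ADAR siRNA. The log2 ratio of GSTA2 to GSTA1 was higher by 0.97 in the ADAR siRNA libraries, and no library of either group overlapped the other. A two-sided exact permutation test gave p = 0.1, the smallest possible with 3 against 3 libraries (adjusted p = 0.2 over the 7 comparisons of this ratio).

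**Figure D2:**
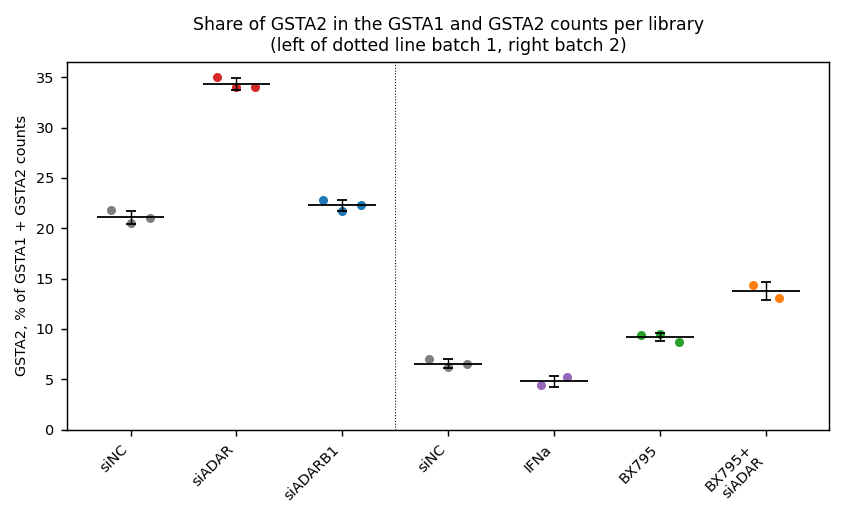
Share of GSTA2 in the summed counts of GSTA1 and GSTA2 (percent, vertical axis from 0) in each library. Points are libraries, bars are group means and whiskers the SD. The share is 34.0% to 35.0% after ADAR siRNA and 20.5% to 22.8% in the 6 other libraries of batch 1.

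The alpha member GSTA4, which acts on aldehydes from oxidised lipids, was low. It stood at 5.19, 5.76 and 5.64 CPM in siNC and at 4.09, 4.26 and 5.17 CPM after ADAR siRNA, apart by a narrow gap. Its log2 fold change was -0.30 ± 0.11 (adjusted p = 0.053), which missed the threshold, and it passed with ADAR siRNA replicate 3 left out (-0.40, adjusted p = 0.0174). GSTO1, an omega class enzyme that reduces dehydroascorbate, was at 127, 130 and 131 CPM in siNC and at 108, 112 and 115 CPM after ADAR siRNA. The libraries did not overlap, and GSTO1 fell by 0.21 ± 0.04 on the log2 scale (adjusted p = 2.95e-04).

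MGST2, a membrane enzyme that can make leukotriene C, was at 28.1, 29.8 and 30.1 CPM in siNC and at 26.2, 23.5 and 25.5 CPM after ADAR siRNA. It fell by 0.22 ± 0.05 (adjusted p = 0.00289), without overlap. GSTK1, the kappa enzyme of mitochondria and peroxisomes, was at 209, 210 and 199 CPM in siNC and at 178, 188 and 200 CPM after ADAR siRNA. Here the libraries overlapped, and the fall of 0.13 ± 0.04 (adjusted p = 0.0366) lost its call in 4 of 6 fits that left out 1 library. The calls of GSTO1, MGST2 and GSTK1 also ended in a fit of all 19 libraries (adjusted p = 0.0828, 0.0507 and 0.117), where the wider spread of batch 2 is shared, while that of GSTA1 passed under every setting run.

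The 3 members left did not pass. MGST1, the abundant liver membrane enzyme, averaged 505 ± 17.6 CPM after ADAR siRNA and 526 ± 10.4 CPM in siNC (log2 fold change -0.06 ± 0.04, adjusted p = 0.218). MGST3, a membrane enzyme with peroxidase activity, had a log2 fold change of 0.12 ± 0.06 (adjusted p = 0.126). GSTZ1, which isomerises maleylacetoacetate in tyrosine breakdown, had one of -0.05 ± 0.06 (adjusted p = 0.533).

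Other genes of glutathione metabolism moved in both directions after ADAR siRNA, and their counts stand beside the 20.2% of all genes that were higher and the 17.6% that were lower. In the NRF2 pathway list, 12 of 20 tested genes were higher and 1 was lower, with a median of 0.26; the thioredoxin reductase TXNRD1 rose from 1092 to 1627 CPM (log2 fold change 0.58 ± 0.03, adjusted p = 1.13e-08) and the sulfiredoxin SRXN1 from 108 to 149 CPM (0.47 ± 0.04, adjusted p = 1.14e-07). NFE2L2, which encodes NRF2, had a log2 fold change of 0.10 ± 0.04 (adjusted p = 0.0546), and the classical target NQO1 one of 0.20 ± 0.17 at under 3 CPM (adjusted p = 0.41). Of 16 genes for glutathione synthesis and recycling, 6 rose and 5 fell, and the median was -0.06. GCLM, the modifier subunit of the rate-limiting ligase, rose by 0.32 ± 0.04 (adjusted p = 5.77e-05), and GCLC, its catalytic subunit, fell by 0.10 ± 0.03 (adjusted p = 0.0249). The glutathione reductase GSR did not pass (0.07 ± 0.04, adjusted p = 0.119). Of 5 tested glutathione peroxidases, 3 rose and 0 fell, led by GPX2 from 16.6 to 35.9 CPM (1.12 ± 0.07, adjusted p = 1.07e-08).

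Among transcription factors and nuclear receptors known to act on hepatic transferase genes, 10 of 14 fell and 1 rose after ADAR siRNA, with a median of -0.31. HNF4A, the hepatocyte master regulator, fell from 270 to 170 CPM (log2 fold change -0.67 ± 0.04, adjusted p = 2.31e-08). Of 9 tested transferase genes outside the set, GSTCD and PTGES rose and GSTM2 and GSTM4 fell. GSTCD rose from 14.9 to 22.5 CPM, and PTGES, near the floor, from 0.0358 to 0.329 CPM. GSTM2 fell from 5.31 to 3.7 CPM and GSTM4 from 64.5 to 57.7 CPM. Hepatocyte markers mostly fell: 11 of 15 were lower and 1 was higher, CYP3A4, from 206 to 977 CPM. The summed level of the 15 was 50466 to 53792 CPM after ADAR siRNA against 66952 to 72143 CPM. Biliary and progenitor markers moved the other way, with 8 of 9 tested genes higher and a summed level of 1089 to 1120 CPM against 561 to 615 CPM. Mesenchymal markers summed to 302 to 316 CPM against 192 to 214 CPM (5 of 9 higher, 2 lower). Macrophage and endothelial markers split: KDR, which makes up most of their sum, fell from 147 to 129 CPM and CD68 from 34.4 to 28.6 CPM, while PECAM1 and MARCO, both under 2 CPM, rose, and the list's median was 0.58. All 10 interferon-stimulated genes examined were higher. The part of these changes in the fall of GSTA1 was not tested, and in bulk RNA fewer cells of a type and less RNA per cell cannot be told apart.

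After ADARB1 siRNA, GSTA1 and GSTA2 fell by similar amounts. In all, 5 of 9 members were lower than the same siNC libraries (GSTA1, GSTA2, GSTO1, MGST2 and MGST1) and 0 were higher, where 16.7% of all genes passed, 8.25% higher and 8.45% lower. The members' median log2 fold change was -0.24, against -0.00 for all genes.

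GSTA1 was at 426, 462 and 454 CPM after ADARB1 siRNA, all below the lowest siNC library at 644 CPM. Its log2 fold change was -0.61 ± 0.05 (adjusted p = 6.12e-07). GSTA2 was at 126, 128 and 130 CPM, all below the siNC minimum of 179 CPM, with a log2 fold change of -0.51 ± 0.04 (adjusted p = 3.38e-07). As 1 gene the copies fell by 0.59 ± 0.04 (adjusted p = 3.25e-07). GSTA2 made up 21.7% to 22.8% of their counts, which overlapped the siNC range of 20.5% to 21.8%.

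GSTO1 was at 108, 108 and 112 CPM after ADARB1 siRNA, and fell by 0.24 ± 0.04 (adjusted p = 3.37e-04). MGST2 was at 23.9, 25.7 and 24.3 CPM and fell by 0.25 ± 0.05 (adjusted p = 0.00343). MGST1, at 489, 490 and 475 CPM, fell by 0.12 ± 0.04 (adjusted p = 0.0346). None of these 3 overlapped the siNC libraries, but in the fit of all 19 libraries they lost their calls (adjusted p = 0.168, 0.115 and 0.694). The MGST1 value was -0.05 with the GC trend of each library removed (adjusted p = 0.343), and it passed in only 1 of 6 fits that left out a library. GSTA4 had a log2 fold change of -0.34 ± 0.11 (adjusted p = 0.0535), MGST3 of 0.15 ± 0.06 (adjusted p = 0.121), GSTK1 of -0.06 ± 0.04 (adjusted p = 0.433) and GSTZ1 of -0.00 ± 0.06 (adjusted p = 0.986).

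Beside these, 6 of 20 NRF2 pathway genes were lower and 1 was higher after ADARB1 siRNA, among them AKR1C1, an aldo-keto reductase, which fell from 706 to 535 CPM (log2 fold change -0.40 ± 0.04, adjusted p = 4.58e-06). NFE2L2 had a log2 fold change of -0.12 ± 0.04 (adjusted p = 0.0555), and GCLM and GCLC did not pass (0.00 ± 0.04 and -0.07 ± 0.03). Of 11 tested genes for conjugate export and mercapturate formation, 5 fell and 1 rose; the exporter ABCG2 fell from 7.77 to 4.17 CPM (-0.90 ± 0.09, adjusted p = 1.04e-05). Of 14 regulators, 4 fell and 0 rose: AHR, NR1I2, NR1I3 and NR3C1. AHR, the aryl hydrocarbon receptor, fell from 179 to 151 CPM (-0.24 ± 0.04, adjusted p = 7.15e-04) and NR1I3, the xenobiotic receptor CAR, from 7.32 to 4.67 CPM (-0.65 ± 0.14, adjusted p = 0.00485), while HNF4A had a mean of 270 CPM in both groups. These counts stand beside 8.25% of all genes higher and 8.45% lower. Hepatocyte markers fell in 11 of 15 cases, with a summed level of 58111 to 61558 CPM, and their part in the GSTA changes was not tested.

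Set directly against each other, the siRNA groups differed in GSTA1 and in GSTA2 in opposite directions. Against siNC, the log2 ratio of GSTA2 to GSTA1 was higher by 0.97 after ADAR siRNA and by 0.10 after ADARB1 siRNA. ADAR siRNA libraries had less GSTA1 than ADARB1 siRNA libraries (log2 fold change -0.36 ± 0.05, adjusted p = 1.81e-05) and more GSTA2 (0.51 ± 0.04, adjusted p = 7.43e-08). No library overlapped for either gene. These were 2 of 9 members, where 35.7% of all genes passed, 18.8% higher and 16.9% lower. With the copies counted as 1 gene the difference was -0.12 ± 0.04 (adjusted p = 0.0335). The log2 ratio of GSTA2 to GSTA1 differed by 0.87 (two-sided exact permutation test, p = 0.1, the smallest possible; adjusted p = 0.2). The other 7 members had differences between -0.07 and 0.06, and none passed. Both siRNAs were compared with the same controls, so their values against siNC are not independent.

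**Figure D3:**
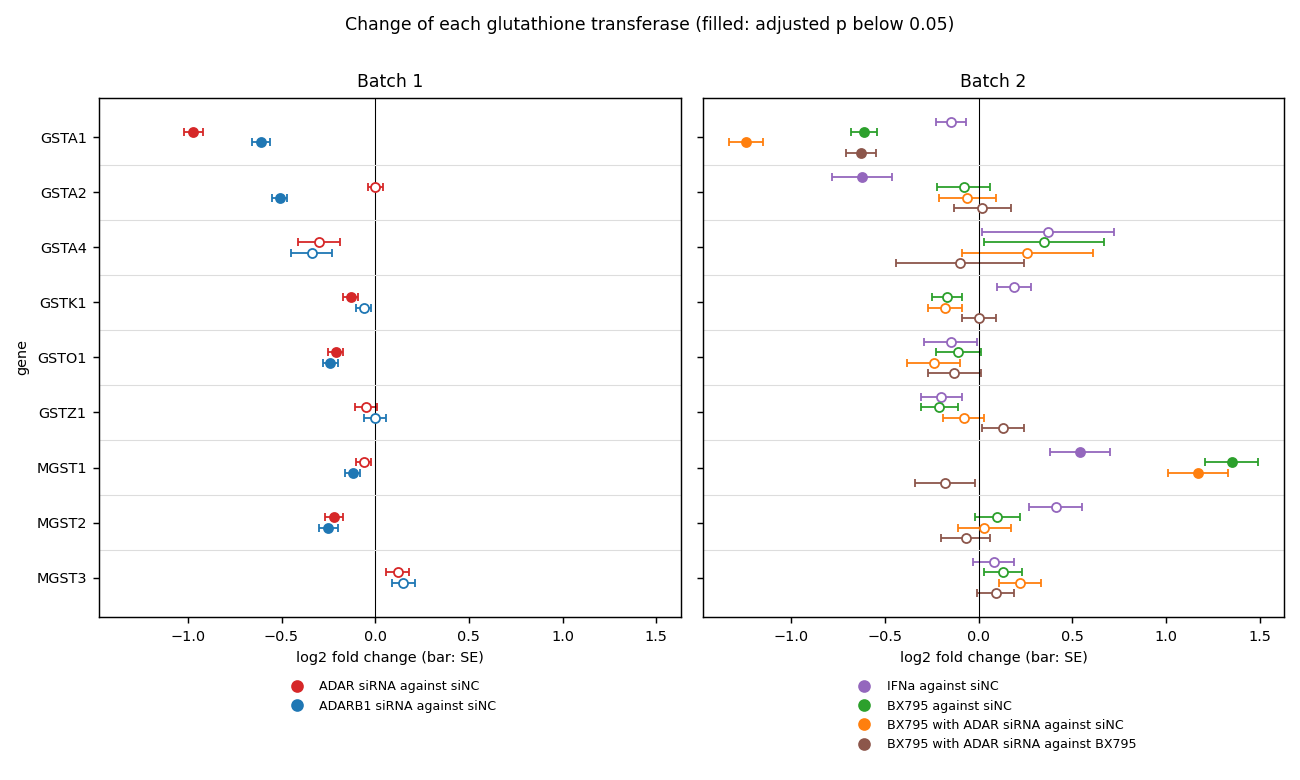
Log2 fold change of each tested member (horizontal axis, whiskers are the SE) in batch 1 and batch 2. Filled points passed an adjusted p below 0.05. GSTA1 lies at -0.97 and GSTA2 at -0.00 after ADAR siRNA, whereas they lie at -0.61 and -0.51 after ADARB1 siRNA, and MGST1 lies at 1.35 with BX795.

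Interferon alpha, at a dose that raised all 10 interferon-stimulated genes examined, changed few members. MGST1 was higher and GSTA2 lower than siNC, 2 of 9 members, where 22.7% of all 20718 genes passed, 11.9% higher and 10.9% lower. The members' share was near this background. MGST1 was at 331, 215 and 280 CPM in the siNC libraries and at 431 and 369 CPM with IFNa, apart by a gap smaller than the range of either group. The log2 fold change was 0.54 ± 0.16 (adjusted p = 0.033). GSTA2 was at 9.69, 8.93 and 9.12 CPM in siNC and at 5.36 and 6.75 CPM with IFNa, lower in 2 of 2 libraries, with a log2 fold change of -0.62 ± 0.16 (adjusted p = 0.0216).

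Neither call was firm. With the GC trend removed, MGST1 was at 0.17 ± 0.07 and did not pass (adjusted p = 0.128), while GSTA2 was at -0.93 ± 0.18 (adjusted p = 0.00571) and GSTA1 came to pass at -0.40 ± 0.10 (adjusted p = 0.0199) and GSTK1 at 0.35 ± 0.07 (adjusted p = 0.00709). Without siNC replicates 2 and 3, the libraries with the highest GC values, MGST1 was at 0.26 and GSTA2 at -0.69, and neither passed (adjusted p = 0.338 and 0.167). Leaving out IFNa replicate 1, siNC replicate 2 or siNC replicate 3 each ended both calls, with MGST1 between 0.40 and 0.56 and GSTA2 between -0.63 and -0.45.

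In the reported fit GSTA1 was at 116 and 122 CPM with IFNa against 130 to 135 CPM in siNC, lower in 2 of 2 libraries without passing (-0.15 ± 0.08, adjusted p = 0.208). Counted as 1 gene, GSTA1 and GSTA2 had a log2 fold change of -0.17 ± 0.08 and did not pass (adjusted p = 0.147). MGST2 was at 21.8 and 21 CPM against 13.6 to 18.2 CPM, higher in 2 of 2 libraries, and narrowly missed the threshold (0.41 ± 0.14, adjusted p = 0.0512). GSTK1, at 210 and 215 CPM against 174 to 192 CPM, had a log2 fold change of 0.19 ± 0.09 (adjusted p = 0.123). GSTA4, GSTO1, GSTZ1 and MGST3 overlapped their controls. GSTA2 made up 4.4% and 5.2% of the GSTA1 and GSTA2 counts with IFNa, against 7.0%, 6.2% and 6.5% in siNC. The log2 ratio of GSTA2 to GSTA1 differed from siNC by -0.47, without overlap. A two-sided exact permutation test gave p = 0.2, the smallest possible with 2 against 3 libraries (adjusted p = 0.2).

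Of the surrounding pathway, 3 of 5 glutathione peroxidases were lower with IFNa and 1 was higher, where 10.9% of all genes were lower and 11.9% higher. GPX1, the main cytosolic peroxidase, fell from 325 to 187 CPM (log2 fold change -0.80 ± 0.14, adjusted p = 0.00678). GSR fell from 366 to 265 CPM (-0.47 ± 0.13, adjusted p = 0.0316), and GCLC, GCLM, NFE2L2 and NQO1 did not pass. LAP3, a leucine aminopeptidase that can cleave the cysteinylglycine left from conjugates, rose from 29.3 to 87 CPM (1.57 ± 0.13, adjusted p = 3.88e-05). Of 20 NRF2 pathway genes, 6 were lower and 2 higher, with a median of -0.22. Hepatocyte markers were lower in 5 of 15 cases and higher in 1, with a median of -0.42 and a summed level of 12614 to 13403 CPM against 13441 to 16096 CPM. Among macrophage and endothelial markers, 1 of 3 tested was higher, KDR, from 474 to 713 CPM. CD68 was at 0.30 and PECAM1 at -1.48 on the log2 scale without passing, the latter at 0.154 CPM with IFNa and 0.409 CPM in siNC. The part of these shifts in the GSTA2 and MGST1 values was not tested.

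BX795 gave the largest rise of any member in the within-batch comparisons. MGST1 was at 331, 215 and 280 CPM in siNC and at 668, 724 and 720 CPM with BX795. The lowest BX795 library was above the highest siNC library by more than the whole siNC range, and the means were 275 ± 58.3 and 704 ± 31.5 CPM (SD, n = 3 each). The log2 fold change was 1.35 ± 0.14, a factor of 2.56 (adjusted p = 1.34e-04). GSTA1 went the other way, from 130, 135 and 131 CPM to 88.9, 86.9 and 83.5 CPM, lower in 3 of 3 libraries (log2 fold change -0.61 ± 0.07, adjusted p = 3.00e-04). These were 2 of 9 members, where 42.1% of all genes passed, 20.2% higher and 21.9% lower, so the members' share was below the background.

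Both changes held their direction and call under all settings run, but their size depended on base composition. MGST1 transcripts are 37.5% GC and those of GSTA1 43.0%. With the GC trend removed, MGST1 was at 0.89 ± 0.07 (adjusted p = 5.30e-06), GSTA1 at -0.92 ± 0.09 (adjusted p = 4.34e-05), and GSTA2 came to pass at -0.46 ± 0.16 (adjusted p = 0.0434). Without siNC replicates 2 and 3, MGST1 was at 1.09 ± 0.13 (adjusted p = 0.00333) and GSTA1 at -0.58 ± 0.09 (adjusted p = 0.0117).

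**Figure D4:**
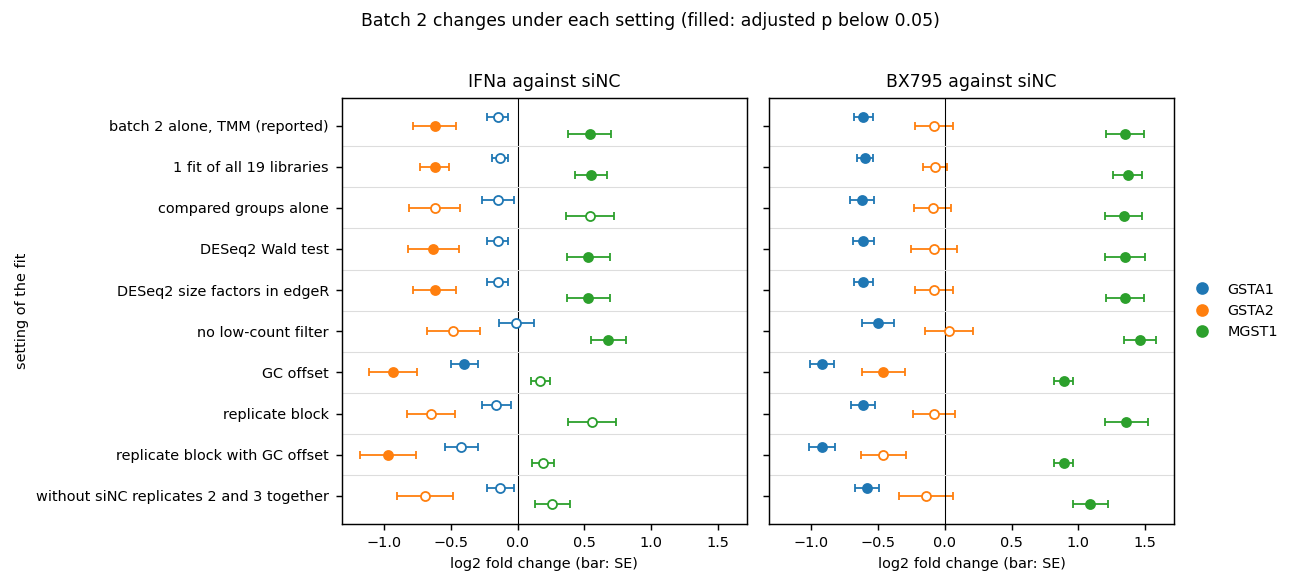
Log2 fold changes (horizontal axis, whiskers are the SE) of GSTA1, GSTA2 and MGST1 against siNC with IFNa and with BX795, under the reported fit and 9 other settings (vertical axis). Filled points passed an adjusted p below 0.05. With BX795 the MGST1 points lie at or above 0.89 and those of GSTA1 below 0, whereas with IFNa MGST1 moves from 0.54 to 0.17 once the GC trend is removed.

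GSTA2 was at 9.25, 9.13 and 7.99 CPM with BX795 against 8.93 to 9.69 CPM in siNC, with overlap (-0.08 ± 0.14, adjusted p = 0.676). Its share of the GSTA1 and GSTA2 counts was 9.4%, 9.5% and 8.7% with BX795 against 7.0%, 6.2% and 6.5%. The log2 ratio was higher by 0.53, without overlap (two-sided exact permutation test, p = 0.1, the smallest possible; adjusted p = 0.2). Counted as 1 gene, GSTA1 and GSTA2 had a log2 fold change of -0.57 ± 0.08 (adjusted p = 4.72e-04). GSTK1 and GSTZ1 were lower in 3 of 3 libraries without passing (-0.17 ± 0.08 and -0.21 ± 0.10, adjusted p = 0.0942 and 0.112). MGST2, MGST3, GSTO1 and GSTA4 had values between -0.11 and 0.35 and overlapped their controls.

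MGST1 thereby took a larger part of the transferase RNA. Summed per length over the members, the total was 734 to 851 CPM per kb in siNC and 1175 to 1208 CPM per kb with BX795. MGST1 made up 32.1% to 42.7% of it in siNC and 62.4% to 65.8% with BX795, while GSTA1 made up 15% to 18% and 6.78% to 7.43%. In batch 1 the total was 1815 to 1895 CPM per kb in siNC, 1434 to 1531 after ADAR siRNA and 1490 to 1534 after ADARB1 siRNA. There GSTA1 made up 34.8% to 36.7%, 22.9% to 23.4% and 28% to 29.6%, so that MGST1 and not GSTA1 was the most abundant member after either siRNA.

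**Figure D5:**
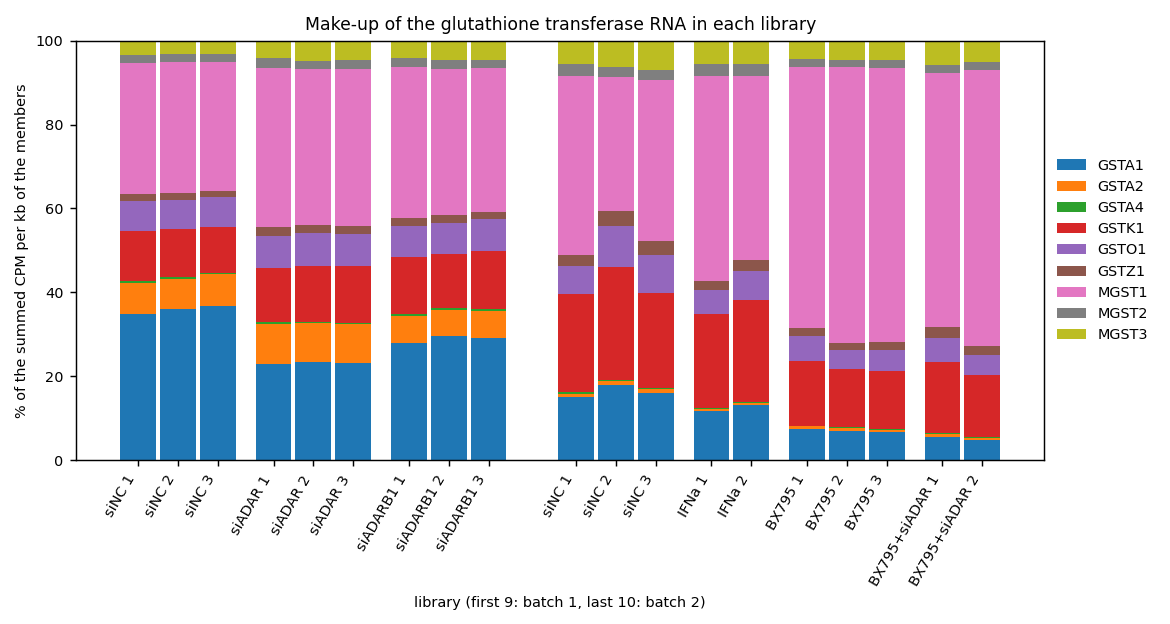
Share of each member in the summed CPM per kb of the members (percent, vertical axis) for each of the 19 libraries. GSTA1 makes up 34.8% to 36.7% of the batch 1 siNC bars and 4.79% to 5.43% where BX795 met ADAR siRNA, and MGST1 makes up 62.4% to 65.8% with BX795.

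Of 16 genes that supply glutathione, 4 were higher and 8 lower with BX795, where 20.2% of all genes were higher and 21.9% lower, so the share of higher genes was near the background. GCLC rose from 88.5 to 111 CPM (0.33 ± 0.08, adjusted p = 0.00794) and GCLM from 76 to 106 CPM (0.48 ± 0.09, adjusted p = 0.00236), whereas GSR fell from 366 to 207 CPM (-0.82 ± 0.12, adjusted p = 7.30e-04). NFE2L2 rose from 71.7 to 103 CPM (0.52 ± 0.11, adjusted p = 0.00486). In its pathway list, 4 of 20 were higher, which is near the background share, and 7 were lower. NQO1 was at 0.728 and 1.24 CPM (-0.79 ± 0.30, adjusted p = 0.0569). Among regulators, 6 of 13 fell and 1 rose; CEBPA, a liver transcription factor, fell from 13.1 to 3.74 CPM (-1.81 ± 0.26, adjusted p = 6.85e-04). Of 15 hepatocyte markers, 6 fell and 4 rose, with a median of -0.21. CYP3A4 rose from 1.68 to 77.7 CPM (5.51 ± 0.21, adjusted p = 3.06e-07), and AHSG fell from 4.77 to 0.996 CPM (-2.25 ± 0.30, adjusted p = 4.55e-04). ALB fell from 7479 to 6077 CPM and APOB rose from 3321 to 7053 CPM, and the sum of the 15 was 16227 to 17344 CPM against 13441 to 16096 CPM. The biliary sum was 322 to 339 CPM against 487 to 587 CPM, and the mesenchymal sum 287 to 290 CPM against 447 to 463 CPM, with 4 of 8 biliary markers lower and 2 higher, and 5 of 8 mesenchymal markers lower and 1 higher. Of 3 tested macrophage and endothelial markers, KDR rose from 474 to 672 CPM, while CD68 and PECAM1 were at -0.30 and -0.17 without passing. Whether these shifts, or the GC and mitochondrial values given above, have a part in the MGST1 rise was not tested beyond the GC setting.

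Adding ADAR siRNA to BX795 lowered GSTA1 further and left MGST1 high. Against siNC, GSTA1 was at 56.9 and 54.8 CPM (log2 fold change -1.24 ± 0.09, adjusted p = 8.00e-06) and MGST1 at 568 and 673 CPM (1.17 ± 0.16, adjusted p = 3.96e-04). These were 2 of 9 members, where 33% of all genes passed, 16.9% higher and 16% lower, and no library of either gene overlapped siNC. With the GC trend removed, the values were -1.52 for GSTA1 and 0.74 for MGST1, and both passed. As 1 gene, GSTA1 and GSTA2 were lower by 1.12 ± 0.09 on the log2 scale (adjusted p = 1.56e-05).

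Against BX795 alone, GSTA1 was the only member of 9 that passed, where 3.66% of all genes did, 1.49% higher and 2.17% lower. It fell from 86.4 ± 2.72 CPM (n = 3) to 55.8 ± 1.44 CPM (n = 2), without overlap (-0.63 ± 0.08, adjusted p = 0.00215), and passed in each of 5 fits that left out 1 library. GSTA2 was at 9.56 and 8.27 CPM against 7.99 to 9.25 CPM (0.02 ± 0.15, adjusted p = 0.97). Its share of the counts of both copies was 14.4% and 13.1% against 8.7% to 9.5%. The log2 ratio was higher by 0.65, without overlap (two-sided exact permutation test, p = 0.2, the smallest possible with 2 against 3 libraries; adjusted p = 0.2). Counted as 1 gene, GSTA1 and GSTA2 had a log2 fold change of -0.56 ± 0.09 (adjusted p = 0.00464). MGST1 overlapped the BX795 libraries (-0.18 ± 0.16, adjusted p = 0.639), and the 6 others had values between -0.13 and 0.13. HNF4A fell from 76.4 to 49.8 CPM in the same comparison (-0.62 ± 0.12, adjusted p = 0.0174) and TXNRD1 rose from 1325 to 2171 CPM (0.71 ± 0.09, adjusted p = 0.00126). No gene of the synthesis, peroxidase or export lists passed. Of 10 interferon-stimulated genes, 6 were higher and 0 lower, with a median of 1.07. Hepatocyte markers were lower in 4 of 15 cases and higher in 0, with a summed level of 10297 to 12928 CPM against 16227 to 17344 CPM, and 2 of 8 biliary markers were higher and 0 lower. Their part in the fall of GSTA1 was not tested. It is not given whether the wells with only BX795 received siNC, so this comparison may hold an effect of transfection as well as of ADAR siRNA.

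The fall of GSTA1 after ADAR siRNA was smaller with BX795 than without it. The difference of the responses was 0.37 ± 0.09 on the log2 scale (adjusted p = 0.0207, edgeR quasi-likelihood over all 19 libraries), the only member of 9 to pass, where 3.42% of all 23121 genes did, 1.42% higher and 2% lower. The call was not firm: it ended with the GC trend removed (0.37, adjusted p = 0.061), without the low-count filter (0.34, adjusted p = 0.242), and in 8 of 11 fits that left out 1 library. Responses without BX795 come from batch 1 and those with it from batch 2, so BX795 and batch cannot be told apart in this contrast. The response without BX795 was measured against siNC, whereas it is not given whether the wells with only BX795 received siNC. Transfection itself may therefore also differ between the responses.

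The genes whose levels followed GSTA1 most closely over the 19 libraries, each batch centred on its own mean, were PEG10 (r = 0.95), BRD3 (r = 0.95) and RAB37 (r = 0.94) out of 9244 genes searched. Of the 6 other members above the level of 10 CPM set for this search, GSTK1 (r = 0.68) and GSTO1 (r = 0.63) came nearest, while MGST3 (r = -0.62) and MGST1 (r = -0.56) ran opposite. Libraries of a group share its treatment, so these values describe the 7 groups more than 19 separate points. GSTA2, GSTA4 and GSTP1 were below that level in batch 2 and were not ranked.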

How the data were processed

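RNA from 19 HepaRG libraries was sequenced as paired reads of 150 bases. The deposited table holds expected counts per gene made by the authors; STAR, Salmon and GRCh38.p14 are named per the submitters' processing notes, without versions or roles. Of its values, 94.82% lay within 0.005 of a whole number, and all were rounded to whole counts. Totals were 42.7 to 77.1 M per library in batch 1 and 13.1 to 34.7 M in batch 2.

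Each batch was fitted alone with edgeR 4.0.16 in R 4.3.3 (TMM scaling, filterByExpr with a minimum count of 10, quasi-likelihood test), and p-values were adjusted by Benjamini-Hochberg over all tested genes at a threshold of 0.05. The response to ADAR siRNA with and without BX795 was compared in 1 fit of all 19 libraries. CPM per kb used the median protein-coding transcript length in GENCODE. The GC measure of each library was the mean log2(CPM + 0.5) of genes above 60% GC minus that of genes below 40% GC. Where the GC trend was removed, a smooth curve over gene GC was fitted for each library. That curve, of log2 CPM relative to the mean of the fitted libraries, served as an offset in the fit. In tests on simulated counts, the batch 1 fit (ADAR siRNA against siNC, 21747 genes) recovered 97% of genes changed 2-fold, and the batch 2 fit (BX795 against siNC, 20718 genes) 89.6%. Of genes changed 1.5-fold, the batch 1 fit recovered 77.6% and the batch 2 fit 43.3%, so smaller changes can be missed, above all in batch 2. Each rate rests on 67 changed genes, drawn only from genes above a minimum mean count. The simulated spread followed the trend with level, without gene-specific spread or the GC differences of batch 2. These rates therefore do not cover low-count genes and may be too high.

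Alternatives were DESeq2 1.42.0, its size factors in edgeR, no low-count filter, an offset for GC content, the compared groups alone, 1 fit of all libraries, GSTA1 and GSTA2 counted as 1 gene, a replicate block, and each library left out. The members and the 11 lists of related and marker genes were chosen with earlier results of these data known. Genes named are the 10 members, ADAR, ADARB1, GCLC, GCLM, GSR, NFE2L2, NQO1, examples from the 2 genes of smallest p in each list and comparison, and the 3 genes most like GSTA1; ALB, APOB, CD68, EPCAM, GSTM2, GSTM4, KDR, MARCO, NR1I2, NR3C1 and PECAM1 were named after their values were seen. Sequences and positions are from RefSeq; MGST2 had no promoter entry. The limit given for GSTP1 covers counting error only, whereas the SD and SE values include the spread between libraries.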

Additional observations from a re-analysis of the deposited data

Results flagged for a closer look

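The response of GSTA1 to ADAR siRNA passed the test for a difference between cells with BX795 and cells without it, but lost that call in 12 of 17 alternatives. The log2 fold change was -0.97 ± 0.05 without BX795 (batch 1) and -0.63 ± 0.08 with it (batch 2), and the difference in 1 edgeR fit of all 19 libraries was 0.37 ± 0.09 (SE; adjusted p = 0.0207). GSTA1 was lower in all 3 ADAR siRNA libraries of batch 1 and in both of batch 2. Across 11 fits that left out 1 library the difference ranged from 0.29 to 0.41, and 8 of them did not pass. With the GC trend removed it was 0.37 (adjusted p = 0.061). BX795 and batch cannot be told apart in this contrast, and transfection may differ too, because siNC in the wells with only BX795 is not given.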

How the results depend on the processing

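No called member changed sign. Of 1084 member values under alternatives, 1017 kept their side of the threshold, 45 lost a call and 22 gained one. With 1 fit of all 19 libraries, members called went from 4 to 1 for ADAR siRNA, from 5 to 2 for ADARB1 siRNA and from 2 to 4 for IFNa, and genes called went to 5042, 1066 and 7932 from 8223, 3632 and 4705. For ADAR siRNA against ADARB1 siRNA they went from 7768 to 4518, and for BX795 with ADAR siRNA against BX795 from 758 to 2201. Counting GSTA1 and GSTA2 as 1 gene left 1 member called for ADAR against ADARB1 siRNA and 1 for IFNa. With the compared groups alone, IFNa had 0 members and 2114 genes called, and BX795 with ADAR siRNA against siNC 4468 genes. Without siNC replicates 2 and 3 of batch 2, an alternative chosen after seeing the data, IFNa had 0 members and 291 genes called, BX795 had 1238 genes and BX795 with ADAR siRNA 2061. For BX795 with ADAR siRNA against BX795, genes called were 1264 with DESeq2, 1895 with the GC offset and 1287 without the low-count filter. For the difference of the responses, 790 genes became 1211 with DESeq2 and 1406 with the GC offset; members called were 0 with the GC offset and 0 without the filter. The cause of these shifts was not tested.

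Whether replicate numbers pair the libraries is not known. After centring each group on its mean, same-numbered libraries of different groups correlated at -0.083 to 0.114 in batch 1 and -0.28 to 0.267 in batch 2. Differently numbered libraries correlated at -0.101 to 0.139 in batch 1 and -0.267 to 0.28 in batch 2. In groups of 2 libraries the centred values mirror each other, so the batch 2 correlations cannot decide on pairing. With a replicate block, IFNa had 0 members and 612 genes called, BX795 with ADAR siRNA against siNC 3955 genes and against BX795 282 genes, and the difference of the responses 0 members and 459 genes. With the replicate block and GC offset together, IFNa had 1815 genes, BX795 4939, BX795 with ADAR siRNA 4288, and the difference 0 members. Leaving out 1 library gave 0 to 3 members and 263 to 7514 genes for IFNa, 5386 to 9974 genes for BX795, 1982 to 8557 for BX795 with ADAR siRNA against siNC, 181 to 453 against BX795, and 0 to 1 members and 384 to 744 genes for the difference. The lowest IFNa count came without IFNa replicate 1 and the highest without siNC replicate 1; a group left with 1 library is assumed to vary like the others. GSTP1 and GSTA4 rest on the fewest counts.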
